A study of Mus musculus with 21 samples.

Results

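The genes of cholesterol synthesis, uptake and efflux were followed in the lungs of C57BL/6 mice that had received e-cigarette liquid components into the trachea. The 33 members were chosen by symbol, as 18 enzymes of synthesis, 4 genes of sterol sensing and its regulation, 6 liver X receptor (LXR) genes and targets, and 5 genes of lysosomal exit, storage and oxysterol production, of 23238 gene symbols in the counts. All 33 were found there and all 33 passed the low-count filter, which left 14727 genes. Propylene glycol (PG), a carrier solvent, was given at 826 or 1100 and set against saline, and vitamin E acetate (VEA), an oily ester used as a diluent, was given at 3.12, 6.25 or 12.5 and set against 10% ethanol. Each animal was instilled with 50 µL daily for 14 days and killed on day 15, and RNA came from lung tissue after bronchoalveolar lavage. Doses are printed without a unit, because the sample labels state mg/kg where the series' own text has mg/mL. The labels do not say in what VEA was dissolved, and age and sex are not given in the sources used here. There were 3 animals in each of the 7 groups and 1 library per animal, 21 in all, so p-values measure the spread between these animals.

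Cells make cholesterol from acetyl-CoA through mevalonate and squalene, and the transcription factor SREBP2 (Srebf2) drives the genes of this route once its escort Scap has carried it out of the endoplasmic reticulum. Insig1 holds that complex back when sterols are plentiful. Oxysterols instead activate the liver X receptors (Nr1h3, Nr1h2), which drive sterol export through Abca1, Abcg1 and Apoe and, through the ubiquitin ligase Mylip, limit lipoprotein uptake. In lung, type II cells need cholesterol for surfactant, and macrophages clear and store it.

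Libraries held 8778028 to 11783151 counts, and 5 CPM (a gene's count scaled to the size of its library) stood for 41.1 to 64.8 counts. The libraries were made from the 3′ ends of transcripts, so CPM were not divided by length and levels are compared between animals, not between genes. Type II cell markers, which define lung tissue here, summed to between 26291 and 55056 CPM, and in none of the 12 marker lists was a counted gene at 0 in a whole group. In whole tissue, fewer cells of a type and less RNA per cell cannot be told apart.

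Promoter sequence bears on this gene set because the synthesis enzymes share SREBP2 as a driver. RefSeq promoters (GRCm38.p6, 250 bases before to 50 after the start) were found for 27 of the 33 members, and they were searched on both strands for TCACNCCA, an SREBP-type sterol element, and CCAAT, the box read by NF-Y, a partner of SREBP2. Shown are 250 to 51 bases before the start of 4 members: 2 synthesis enzymes that rose after PG 1100 (Hmgcs1 at chr13:119690101-119690300, plus strand, and Pmvk at chr3:89454291-89454490, plus strand), the sterol carrier with the smallest adjusted p (Npc2 at chr12:84773163-84773362, minus strand) and the member that rose after VEA at every dose (Ch25h at chr19:34475199-34475398, minus strand). Capitals mark TCACNCCA or CCAAT on either strand, CCAAT on the opposite strand being read as ATTGG, and each line runs 5′ to 3′ along the gene. Of the 2 Pmvk starts in the table, the one farthest upstream was used.
Hmgcs1: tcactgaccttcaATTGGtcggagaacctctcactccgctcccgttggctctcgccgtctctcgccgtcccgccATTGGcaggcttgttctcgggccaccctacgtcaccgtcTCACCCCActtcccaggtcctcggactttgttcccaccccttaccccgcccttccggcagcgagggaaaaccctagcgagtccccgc
Pmvk: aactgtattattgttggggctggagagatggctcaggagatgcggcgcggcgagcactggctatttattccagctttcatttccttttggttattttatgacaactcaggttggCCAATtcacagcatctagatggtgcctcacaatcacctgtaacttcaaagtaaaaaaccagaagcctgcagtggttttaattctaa
Npc2: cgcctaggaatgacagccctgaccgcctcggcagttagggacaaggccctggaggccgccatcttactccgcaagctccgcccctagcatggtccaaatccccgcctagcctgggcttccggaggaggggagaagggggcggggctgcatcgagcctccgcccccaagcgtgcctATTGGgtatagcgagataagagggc
Ch25h: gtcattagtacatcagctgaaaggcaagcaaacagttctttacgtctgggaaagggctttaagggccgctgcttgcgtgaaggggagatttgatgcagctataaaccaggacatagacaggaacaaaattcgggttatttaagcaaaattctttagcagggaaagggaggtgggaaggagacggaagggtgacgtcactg
Hmgcs1 held TCACCCCA 137 bases before its start, between 2 CCAAT boxes farther upstream at 237 and 176 bases and 1 nearer the start at 45 bases. Pmvk held a CCAAT box at 136 bases, and Npc2 held boxes at 75 and 6 bases, the nearer of which lies past the printed stretch. No match was found in Ch25h, which says only that these letters are not in this window. CCAAT was present in 14 of the 15 synthesis enzymes with a promoter (93.3%), in 4 of the 9 efflux, storage and oxysterol genes (44.4%) and in 41.1% of all 27025 genes with one. TCACNCCA was present in 4 of the 27 members (Hmgcs1, Msmo1, Srebf2 and Apoe, 14.8%), against 4.97% of all genes. By arm it was in 2 of the 15 synthesis enzymes (13.3%) and in 1 of the 9 efflux, storage and oxysterol genes (11.1%). A match is a description of the letters, not of a bound site.

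Of the 5 comparisons of a dose with its control, PG 1100 had the most members called. The members that rose were 4 of the 18 synthesis enzymes, the lysosomal sterol carriers Npc1 and Npc2, the storage enzyme Soat1 and the lipoprotein gene Apoe, and Mylip fell. By edgeR's quasi-likelihood test with Benjamini-Hochberg adjustment at 0.05, 8 members rose, where 4.09% of all genes tested did, and 1 fell, where 3.23% did. The 3 PG 1100 animals all lay above the 3 saline animals for 14 of the 33 members, 9 of them synthesis enzymes, and all below for 1. Among all genes these shares were 10.1% and 9.69%. Along the VEA doses 3.12, 6.25 and 12.5, set against ethanol, 4, 5 and 11 members lay all above and 3, 3 and 4 all below, where 12.9%, 12% and 15.3% of all genes lay above and 11.8%, 11.5% and 14.8% below. Synthesis enzymes made up 0, 2 and 4 of those above, and the enzyme Sc5d was the 1 below at each dose. The 3 PG 826 animals all lay above the saline animals for 2 members, Scap and Soat1, and all below for 1, Mylip. Among all genes 7.27% lay so above and 6.67% below. After PG 826 none of the 33 passed, where 0.136% of all genes did. At an unadjusted p under 0.05 there were 2 by edgeR, 1 by DESeq2 and 2 by limma-voom, and neither of the last tools called any.

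**Figure D1:**
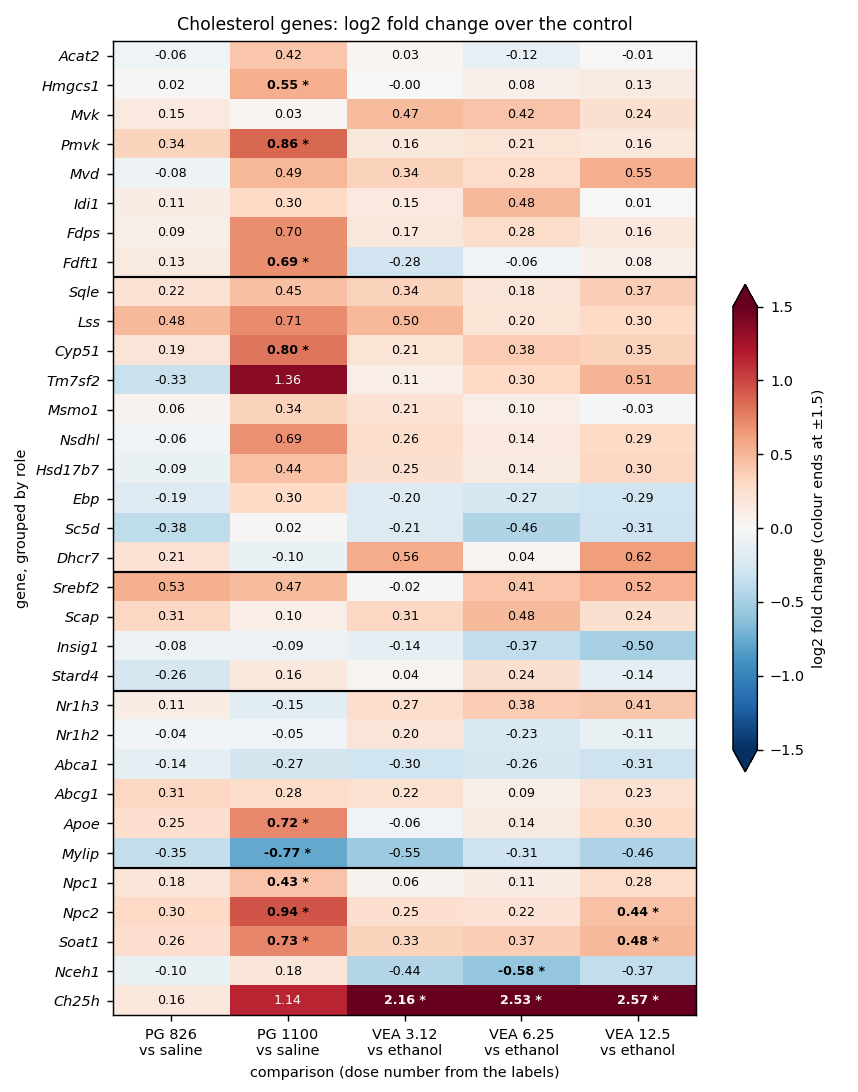
Log2 fold change of each of the 33 members (rows, grouped by role) in 5 comparisons of a dose with its control (columns), with asterisks at Benjamini-Hochberg adjusted p below 0.05. The PG 1100 column holds 8 asterisks for higher members and 1 for a lower one, and Ch25h carries one in each VEA column.

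In the early route from acetyl-CoA to squalene, 3 of 8 enzymes rose after PG 1100 and all 8 had a positive fold change, with a median of 0.52 on the log2 scale against 0.01 over all genes tested. Hmgcs1 makes HMG-CoA, the substrate of the rate-limiting step of the pathway. It had 156, 200 and 196 CPM in PG 1100 lungs, against 114, 125 and 138 CPM in saline lungs. The groups did not overlap, and animals 28 and 30 stood highest. The log2 fold change was 0.55 ± 0.14 (SE, edgeR quasi-likelihood, adjusted p = 0.0118). Pmvk, which phosphorylates mevalonate phosphate, had 31.2, 31.4 and 37.3 CPM in PG 1100 lungs, against 15.7, 17.3 and 21.9 CPM in saline lungs. These groups were apart as well, with a log2 fold change of 0.86 ± 0.21 (edgeR, adjusted p = 0.00558). Fdft1, squalene synthase (GRCm38 chr14:63145150-63179578), had 35.5, 57.6 and 46.9 CPM in PG 1100 lungs, against 28.3, 30.8 and 27.4 CPM in saline lungs. Animal 28 was highest and animal 27 only slightly above the saline range, and the log2 fold change was 0.69 ± 0.21 (edgeR, adjusted p = 0.0409).

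The calls of Hmgcs1 and Fdft1 were lost under some alternatives. Hmgcs1 missed the threshold without PG 1100 animal 28 (edgeR adjusted p = 0.0756) or saline animal 6 (0.0527), and in a fit of only the groups compared (0.104). Fdft1 missed it in that fit (0.0850), and without PG 1100 animal 28 (0.277) or 30 (0.0790) or any 1 of saline animals 6 (0.0923), 8 (0.0693) and 10 (0.119). Pmvk passed under all 12 alternatives. The 3′ end of Fdft1 overlaps Ctsb, a lysosomal protease on the opposite strand whose own log2 fold change was 1.09 ± 0.19 (edgeR, adjusted p = 0.000305), and the sources used here do not say whether counting used strand. Reads of the 2 genes could therefore not be told apart, and the part of Ctsb in the Fdft1 value was not tested.

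Of the 10 enzymes from squalene to cholesterol, 1 rose after PG 1100 and 9 had a positive fold change, with a median of 0.45 on the log2 scale. Cyp51, which removes a methyl group from lanosterol (chr5:4081145-4104746), had 49.5, 72.5 and 70.1 CPM in PG 1100 lungs, against 31.4, 37.4 and 41.3 CPM in saline lungs. Animals 28 and 30 again stood highest, the groups did not overlap, and the log2 fold change was 0.80 ± 0.19 (edgeR, adjusted p = 0.00613). Without animal 28 the adjusted p was 0.0502. Akap9 overlaps the 3′ end of Cyp51 on the opposite strand, and its own log2 fold change was -0.40 ± 0.14 (edgeR, adjusted p = 0.0671). Taken over all 18 enzymes, 4 rose, none fell and 17 had a positive fold change, where 7442 of the 14727 genes tested did. The median was 0.47 after PG 1100 and 0.07 after PG 826, both against saline.

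The means of log2 CPM over the 18 enzymes were likewise highest in animals 28 and 30. They were 4.75, 5.04 and 4.98 in PG 1100 animals 27, 28 and 30, against 4.19, 4.51 and 4.55 in saline animals 6, 8 and 10. All 3 PG 1100 animals lay above the saline animals. The PG 826 means were 4.31, 4.73 and 4.33, overlapping the saline range, with animal 23 the highest.

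**Figure D2:**
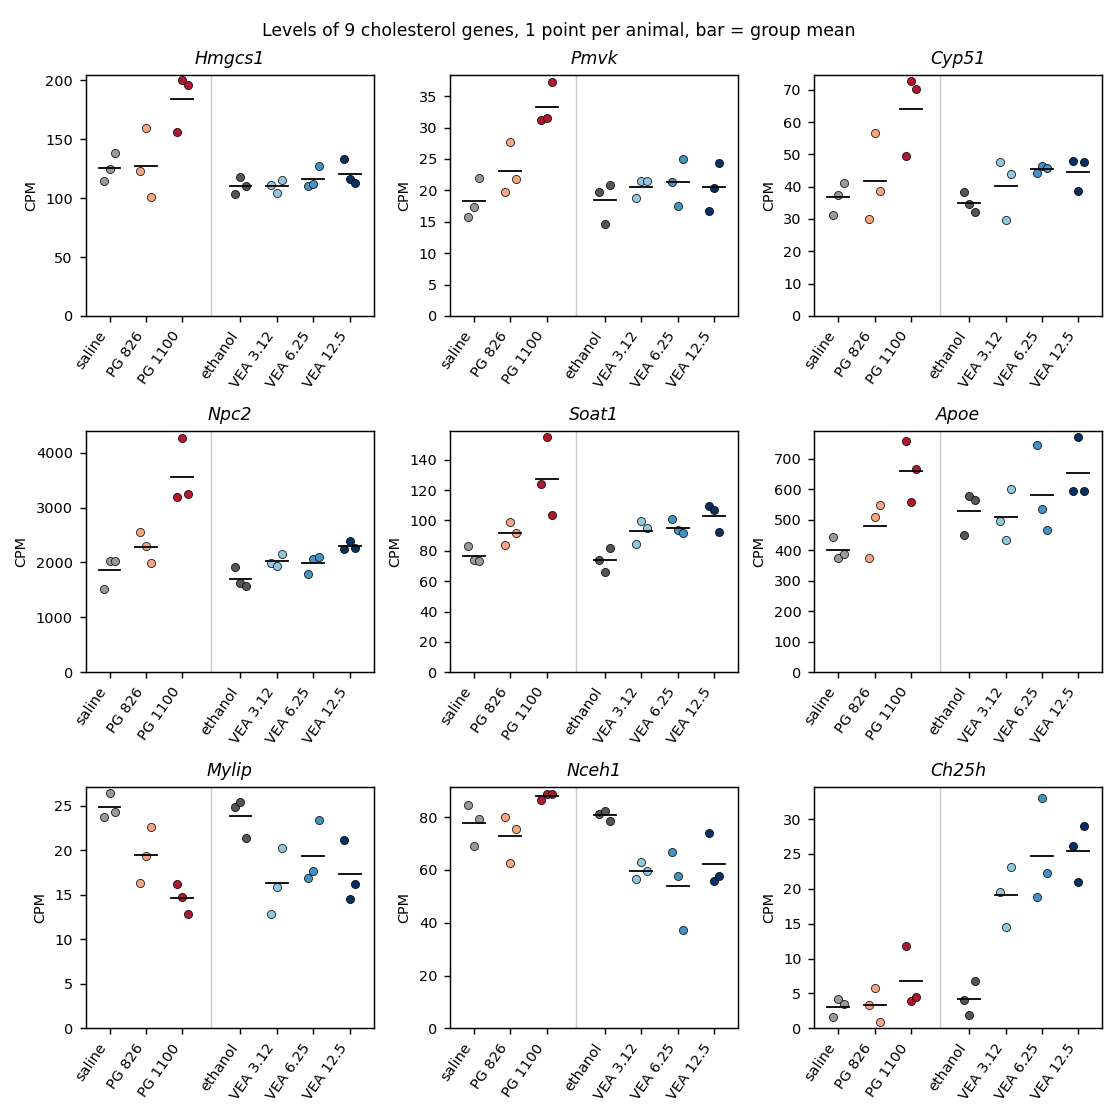
CPM of 9 members in every animal (points; short lines are group means, n = 3 per group), each in its own panel with its own axis. For Hmgcs1, Pmvk and Cyp51 the PG 1100 points stand above the saline points, while Ch25h is high in the VEA groups.

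Against PG 826, the higher PG dose raised 4 of the 33 members and lowered none, where 2.85% of all genes rose and 2.71% fell. In the synthesis route these were Hmgcs1, at 156, 200 and 196 CPM after PG 1100 against 123, 159 and 101 CPM after PG 826 (log2 fold change 0.53 ± 0.14, edgeR adjusted p = 0.0196), and Acat2, which condenses acetyl-CoA ahead of Hmgcs1. Acat2 had 68.3, 89.8 and 83.3 CPM after PG 1100, against 57.1, 55.9 and 60.1 CPM after PG 826 (0.48 ± 0.15, edgeR adjusted p = 0.0409). The Acat2 groups were apart, as 9.93% of all genes were in this direction, and the Hmgcs1 groups overlapped through animal 23 of PG 826. The other members called were Npc2 (0.65 ± 0.14, edgeR adjusted p = 0.00333) and Soat1 (0.48 ± 0.14, edgeR adjusted p = 0.0348). All 4 calls were lost without PG 1100 animal 28 (edgeR adjusted p = 0.286 for Acat2, 0.148 for Hmgcs1, 0.0674 for Npc2 and 0.409 for Soat1). None of the 4 was called without PG 826 animal 25 (0.112 for Acat2, 0.234 for Hmgcs1, 0.0523 for Npc2 and 0.130 for Soat1). Acat2 was lost as well without PG 826 animal 22 (0.104) or 23 (0.143) or PG 1100 animal 30 (0.119), Hmgcs1 without PG 826 animal 22 (0.0690) or PG 1100 animal 30 (0.0790), and Soat1 without PG 826 animal 22 (0.139) or 23 (0.0539). In a fit of only the groups compared none of the 4 passed (0.111 for Acat2, 0.112 for Hmgcs1, 0.0529 for Npc2 and 0.136 for Soat1), and with no low-count filter Acat2 did not (0.0566).

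After VEA none of the 18 synthesis enzymes passed the test at any dose. Their median log2 fold changes against ethanol were 0.19 at VEA 3.12, 0.16 at VEA 6.25 and 0.20 at VEA 12.5, and 14 of the 18 were positive at each dose. These comparisons share their ethanol animals. Hmgcs1 had log2 fold changes of -0.004 ± 0.14, 0.08 ± 0.14 and 0.13 ± 0.14 along the same doses, and Pmvk had 0.16 ± 0.21, 0.21 ± 0.21 and 0.16 ± 0.21. The 95% intervals at VEA 12.5 ran from -0.16 to 0.42 for Hmgcs1 and from -0.26 to 0.57 for Pmvk. The difference between the VEA 12.5 effect and the PG 1100 effect was tested directly and was called for 0 of the 33 members, where 0.19% of all genes were called. At an unadjusted p under 0.05 it reached 7 members by edgeR, 6 by DESeq2 and 7 by limma-voom. For Pmvk it was -0.71 ± 0.29 (95% interval -1.29 to -0.12, edgeR adjusted p = 0.482), so a difference between the agents in synthesis was not established.

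None of the 4 genes of sterol regulation (Srebf2, Scap, Insig1 and the sterol carrier Stard4, which moves cholesterol between membranes) was called in any comparison with a control. Srebf2 had 18.3, 13.1 and 28.6 CPM in PG 1100 lungs, against 19.3, 12.5 and 11.2 CPM in saline lungs. The groups overlapped, and the log2 fold change was 0.47 ± 0.25 (edgeR, adjusted p = 0.299). After VEA 12.5 Srebf2 had 26.7, 23.1 and 27.1 CPM, against 21.3, 20.1 and 12.1 CPM after ethanol (0.52 ± 0.25, edgeR adjusted p = 0.202). Here the groups did not overlap, a separation that 15.3% of all genes showed in this direction. Scap was more variable after PG 1100, at 36.7, 20.6 and 16.8 CPM, against 23.6, 23.1 and 22.9 CPM in saline lungs, and its log2 fold change was 0.10 ± 0.23 (edgeR, adjusted p = 0.880). Insig1 had log2 fold changes between -0.50 and 0.04 in the comparisons with a control, none of which passed.

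The LXR genes did not move as 1 group. After PG 1100, 1 of the 6 rose, 1 fell and the median log2 fold change was -0.10. Apoe, the apolipoprotein that carries exported sterol (chr7:19696109-19699188), had 758, 557 and 665 CPM in PG 1100 lungs, against 444, 373 and 386 CPM in saline lungs. The groups were apart, here with animal 27 highest, and the log2 fold change was 0.72 ± 0.17 (edgeR, adjusted p = 0.00465). The ethanol lungs, at 448 to 576 CPM of Apoe, also all lay above the saline lungs, as 4.69% of all genes did. Ethanol against saline was not called for Apoe. Mean Apoe levels were 401 CPM after saline, 529 after ethanol, 660 after PG 1100 and 652 after VEA 12.5. The part of the control levels in the Apoe results was not tested. Mylip, whose product marks the lipoprotein receptor for breakdown (chr13:45389742-45412022), had 16.2, 14.7 and 12.8 CPM in PG 1100 lungs, against 23.8, 26.4 and 24.3 CPM in saline lungs. All PG 1100 animals were below all saline animals (-0.77 ± 0.21, edgeR adjusted p = 0.0199). The Mylip call was lost without PG 1100 animal 28 (0.0714) or 30 (0.0865) or saline animal 8 (0.0662), in a fit of only the groups compared (0.0790), and without the 3 libraries of fewest detected genes (0.0600).

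Abca1, the main exporter of cholesterol to lipid-poor apolipoprotein, spread from 44.7 in animal 27 to 26.1 in animal 28 and 13.1 CPM in animal 30 after PG 1100, against 34.6, 29.9 and 37.2 CPM in saline lungs. Its log2 fold change was -0.27 ± 0.30 (edgeR, adjusted p = 0.697), with a 95% interval of -0.90 to 0.36. The receptors Nr1h3 and Nr1h2 had -0.15 ± 0.20 and -0.05 ± 0.19, and neither passed. Nr1h2 has a pseudogene, Nr1h2-ps, with which its reads may be shared. After VEA none of the 6 LXR genes was called at any dose, with medians of 0.07, -0.07 and 0.06 along the 3 doses. Abca1 had -0.30 ± 0.30, -0.26 ± 0.30 and -0.31 ± 0.30. Going the other way, Nr1h3 had 0.27 ± 0.20, 0.38 ± 0.20 and 0.41 ± 0.20, and the exporter Abcg1 had 0.22 ± 0.19, 0.09 ± 0.19 and 0.23 ± 0.19. All VEA 12.5 animals lay above all ethanol animals for Nr1h3 and for Apoe, which had 0.30 ± 0.17 at that dose (edgeR adjusted p = 0.297), and all VEA 3.12 animals did for Abcg1. Among all genes, 15.3% lay all above at VEA 12.5 and 12.9% at VEA 3.12. Mylip had 24.8, 25.4 and 21.4 CPM after ethanol, 12.8, 15.9 and 20.3 CPM after VEA 3.12, 16.8, 17.7 and 23.4 CPM after VEA 6.25, and 21.1, 14.5 and 16.2 CPM after VEA 12.5. The VEA 3.12 and VEA 12.5 animals were all below the ethanol animals, the VEA 6.25 animals overlapped them, and none of these 3 comparisons passed (edgeR adjusted p = 0.133, 0.468 and 0.177). Among all genes, 11.8% lay all below at VEA 3.12 and 14.8% at VEA 12.5.

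Among the 5 genes of lysosomal exit, storage and oxysterol production, 3 rose after PG 1100 and all 5 had a positive fold change (median 0.73). Npc2 binds cholesterol in the lysosome and hands it to the membrane protein Npc1, which passes it out. Npc2 had 3187, 4264 and 3249 CPM in PG 1100 lungs, against 1519, 2019 and 2027 CPM in saline lungs. The groups were far apart and animal 28 was highest, and Npc2 had the smallest adjusted p of the 33 members in this comparison (log2 fold change 0.94 ± 0.14, edgeR adjusted p = 1.67e-05). Npc1 had 98.8, 87.3 and 82.8 CPM in PG 1100 lungs, against 73.3, 59.8 and 66.8 CPM in saline lungs, here with animal 27 highest (0.43 ± 0.14, edgeR adjusted p = 0.0460). Its partner at the same locus on the opposite strand, Rmc1 (counted as 3110002H16Rik), had 0.03 ± 0.19. The Npc1 call was lost without saline animal 8 (0.173) or 10 (0.106), without PG 1100 animal 27 (0.138) or 28 (0.0986), with limma-voom (0.0535), with no low-count filter (0.0796), in a fit of only the groups compared (0.235), and without the 3 libraries of fewest detected genes (0.165).

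Soat1, which esterifies cholesterol for storage in droplets (chr1:156424525-156474331), had 124, 155 and 103 CPM in PG 1100 lungs, against 83.3, 73.7 and 73.2 CPM in saline lungs (0.73 ± 0.14, edgeR adjusted p = 0.000538). The groups did not overlap. After VEA 12.5 it had 110, 107 and 92.6 CPM, against 73.8, 65.8 and 82.0 CPM after ethanol (0.48 ± 0.14, edgeR adjusted p = 0.0212), again with no overlap. Soat1 was not called at VEA 3.12 (84.5 to 99.4 CPM) or VEA 6.25 (91.5 to 101 CPM), where the animals also all lay above ethanol. Along the 3 doses 12.9%, 12% and 15.3% of all genes lay so. Npc2 rose after VEA 12.5 as well, with 2247, 2397 and 2267 CPM against 1910, 1620 and 1574 CPM after ethanol (0.44 ± 0.14, edgeR adjusted p = 0.0407). In this comparison 3 members rose and none fell, where 5.48% of all genes rose and 4.23% fell. The Npc2 call was lost without ethanol animal 13 (0.148) or 14 (0.154) and without VEA 12.5 animal 66 (0.0727), 68 (0.121) or 70 (0.0893). The Soat1 call was lost without ethanol animal 12 (0.0656) or 13 (0.131) and without VEA 12.5 animal 66 (0.0883) or 68 (0.0730). Without the 3 libraries of fewest detected genes neither passed (0.134 for Npc2 and 0.119 for Soat1).

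The hydrolase Nceh1, which frees cholesterol from its esters (chr3:27182965-27284608), was the member that fell after VEA. It had 81.2, 82.2 and 78.7 CPM after ethanol, 56.5, 62.9 and 59.6 CPM after VEA 3.12, 66.9, 57.8 and 37.2 CPM after VEA 6.25, and 73.9, 55.7 and 57.6 CPM after VEA 12.5. Every VEA animal lay below every ethanol animal, a separation that 11.8%, 11.5% and 14.8% of all genes showed in this direction along the 3 doses. The test called VEA 6.25 alone (-0.58 ± 0.16, edgeR adjusted p = 0.0232), where 2.25% of all genes fell. At VEA 3.12 and VEA 12.5 the log2 fold changes were -0.44 ± 0.16 and -0.37 ± 0.16 (edgeR adjusted p = 0.106 and 0.145). The VEA 6.25 call was lost without VEA animal 64 (0.0518) or 65 (0.233) and without ethanol animal 12 (0.0672) or 13 (0.0751), and without the 3 libraries of fewest detected genes (0.335).

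Ch25h makes 25-hydroxycholesterol, an oxysterol that activates LXR and restrains SREBP2. It had 4.06, 1.94 and 6.80 CPM after ethanol, 19.6, 14.5 and 23.2 CPM after VEA 3.12, 18.9, 33 and 22.3 CPM after VEA 6.25, and 26.1, 21 and 29 CPM after VEA 12.5. All VEA animals were above all ethanol animals, as were 12.9%, 12% and 15.3% of all genes along the 3 doses. The log2 fold changes were 2.16 ± 0.51 at VEA 3.12 (edgeR adjusted p = 0.0165), 2.53 ± 0.52 at VEA 6.25 (0.00591) and 2.57 ± 0.51 at VEA 12.5 (0.00279). It was the 1 member called higher at VEA 3.12 and at VEA 6.25, where 3.42% and 3.51% of all genes rose, and no member fell at VEA 3.12, where 2.09% of all genes did. The VEA 3.12 call was lost without ethanol animal 12 (0.0741) or 13 (0.0760) and without VEA animal 56 (0.0520) or 59 (0.0618). Without the 3 libraries of fewest detected genes the VEA 3.12 and VEA 6.25 calls were lost (0.102 and 0.0724), while VEA 12.5 passed under all 12 alternatives.

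After PG 1100 Ch25h had 11.8, 3.99 and 4.45 CPM, against 1.58, 4.26 and 3.50 CPM in saline lungs. Animal 27 alone was high, the groups overlapped, and the log2 fold change was 1.14 ± 0.54 (edgeR, adjusted p = 0.248). The VEA 12.5 effect minus the PG 1100 effect was 1.43 ± 0.74 for Ch25h (95% interval -0.12 to 2.98, edgeR adjusted p = 0.693), so the agents were not shown to differ. The trend over the 3 VEA doses was called for 0 of the 33 members, where 0% of all genes were called. At an unadjusted p under 0.05 it reached 2 members by edgeR, 1 by DESeq2 and 2 by limma-voom. Ethanol against saline likewise gave 0 called members, where 0% of all genes were called, and 1 at an unadjusted p under 0.05 by each of these tools.

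**Figure D3:**
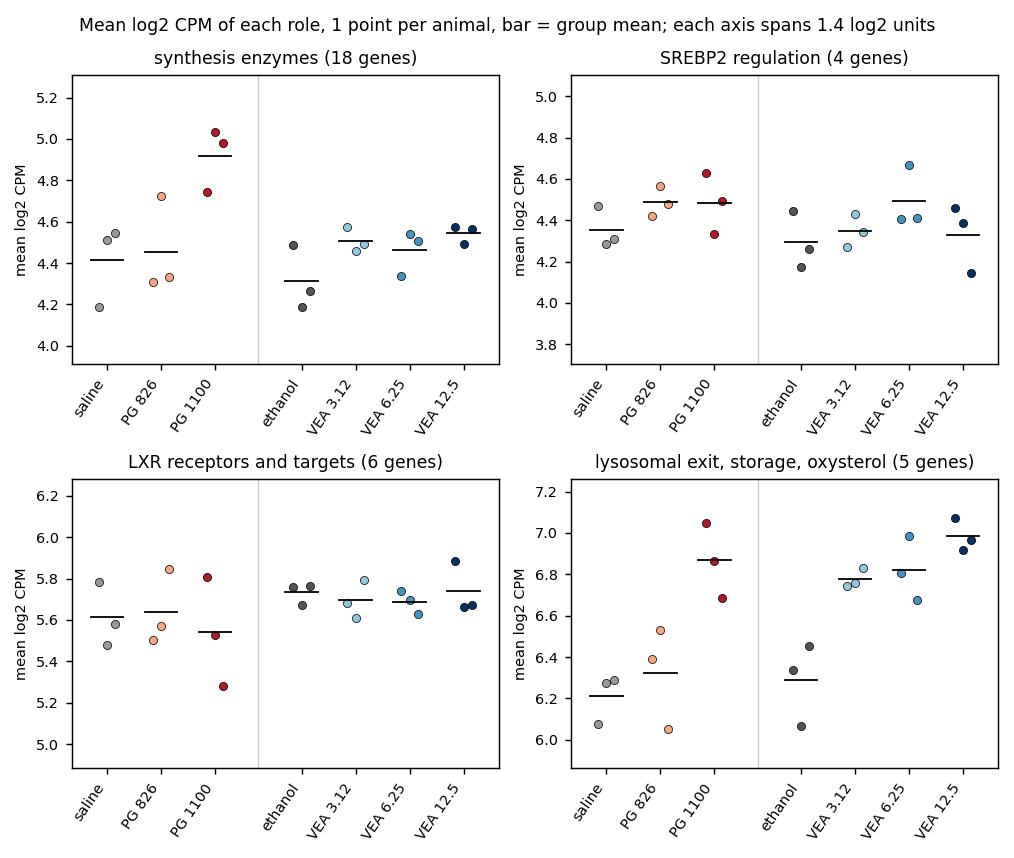
Mean log2 CPM of the members of each role in every animal (points; lines are group means, n = 3). The synthesis means are highest after PG 1100, and the means over the 5 lysosomal, storage and oxysterol genes lie above those of the controls after PG 1100 and VEA. In the VEA groups Ch25h is the member with by far the highest fold change of the 5, and Nceh1 is below its control.

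Efflux, storage and oxysterol genes were then set against the synthesis enzymes. The mean log2 CPM of the 11 efflux, storage and oxysterol genes minus that of the 18 synthesis enzymes was 1.63, 1.10 and 0.94 in PG 1100 animals 27, 28 and 30, against 1.73, 1.33 and 1.36 in saline animals 6, 8 and 10. These groups overlapped. Along the VEA series the difference averaged 1.67 ± 0.14 after ethanol, 1.68 ± 0.09 after VEA 3.12, 1.74 ± 0.14 after VEA 6.25 and 1.76 ± 0.08 after VEA 12.5 (SD, n = 3 each). The ethanol animals spanned 1.53 to 1.81, so all 3 VEA means lay within their range. The 2 list means behind the difference were not flat. The efflux, storage and oxysterol mean was 5.85 to 6.08 after ethanol and 6.11 or more in every VEA animal. This mean includes Ch25h, whose log2 fold changes were 2.16, 2.53 and 2.57 along the doses. The median over the 11 genes was 0.20, 0.11 and 0.28. The mean over the 6 LXR genes alone was 5.73 after ethanol and 5.69, 5.69 and 5.74 along the doses. How much of the higher 11-gene mean came from Ch25h alone was not tested. The synthesis means after VEA 12.5, 4.491 to 4.574, also lay above those after ethanol, 4.189 to 4.489. Those after VEA 3.12 and VEA 6.25 overlapped the ethanol means. These list means were not tested.

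The wider pathway was read from lists around the members. Among all genes tested, 4.09% rose and 3.23% fell after PG 1100. After PG 1100, 1 of 10 other synthesis and SREBP genes was called, Lbr, a sterol reductase of the nuclear envelope, which fell (-0.55 ± 0.15, edgeR adjusted p = 0.0169), and 4 of the 10 had a positive fold change (median -0.12). Of 12 other efflux and lipoprotein genes tested, 4 rose and none fell (8 positive, median 0.13). The smallest adjusted p among them was that of Lpl, which releases fatty acids from lipoproteins (1.01 ± 0.16, edgeR adjusted p = 4.47e-05). Of 17 other transport, storage and oxysterol genes, 4 rose and none fell (9 positive, median 0.16). Here the smallest adjusted p was that of Lipa, the lysosomal esterase that frees cholesterol (1.46 ± 0.18, edgeR adjusted p = 8.58e-07). Cyp7b1, which breaks down oxysterols, had the highest fold change of the 4 (1.78 ± 0.52, edgeR adjusted p = 0.0263). Of 9 uptake and scavenger receptors, 2 rose and 1 fell (6 positive, median 0.41), with Msr1, a macrophage receptor for modified lipoprotein, at 3.92 ± 0.55 (edgeR adjusted p = 0.000106) and the fatty acid and lipoprotein receptor Cd36 at -0.45 ± 0.13 (edgeR adjusted p = 0.0234). Control counts were low for 2 of these genes. Over the 3 saline lungs Msr1 had 45 counts and Cyp7b1 56, against 666 and 186 over the 3 PG 1100 lungs.

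The same lists after VEA 12.5, set against ethanol, held 1 lower of 10, 0 called of 12, 3 higher and 2 lower of 17, and 2 higher and 1 lower of 9. Of all genes tested, 5.48% rose and 4.23% fell in this comparison. The lower synthesis gene was Ggps1, which branches off the mevalonate route (-0.66 ± 0.19, edgeR adjusted p = 0.0169). Lipa rose (1.19 ± 0.18, edgeR adjusted p = 1.21e-05), as did Cyp7b1 (3.10 ± 0.56, edgeR adjusted p = 0.00019), which turns over the product of Ch25h. Msr1 rose too (4.22 ± 0.55, edgeR adjusted p = 4.16e-05), along with the macrophage receptor Marco, which is also on the alveolar macrophage marker list (2.67 ± 0.39, edgeR adjusted p = 0.000376). Over the 3 ethanol lungs Cyp7b1 had only 25 counts and Msr1 41, against 289 and 1035 over the 3 VEA 12.5 lungs. Lipa, Cyp7b1, Msr1 and Marco were also called higher at VEA 3.12 and at VEA 6.25. Apoa1 was called lower at VEA 6.25, from 1 count over the 3 VEA 6.25 lungs against 70 counts over the 3 ethanol lungs.

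Markers of several cell types moved beside these genes. The counts below stand beside 4.09% of all genes higher and 3.23% lower after PG 1100. After VEA 12.5 these shares were 5.48% and 4.23%. In PG 1100 lungs, 5 of 10 type II cell markers rose and none fell, and they summed to 35626, 55056 and 48339 CPM in animals 27, 28 and 30, against 27865, 38510 and 34309 CPM in saline animals 6, 8 and 10. The animals with the highest type II sums, 28 and 30, were also those with the highest synthesis means. Animal 27 had a type II sum within the saline range, while its synthesis mean of 4.75 lay above the saline means (4.19 to 4.55). Among the saline animals, animal 8 had the highest type II sum and animal 10 the highest synthesis mean. Recruited macrophage markers (8 of 12 higher after PG 1100) summed to 624, 1757 and 691 CPM, against 259, 274 and 264 CPM, and animal 28 again stood out. After VEA 12.5, 11 of these 12 rose, with sums of 837 to 1052 CPM against 270 to 304 CPM after ethanol. In that group 4 of 10 type II markers rose and none fell, and their sums were 27968 to 30433 CPM, against 27093 to 31277 CPM after ethanol. Of the 13 alveolar macrophage markers counted, 5 rose and 1 fell after PG 1100, and 6 rose and 2 fell after VEA 12.5. Of 8 fibroblast markers, 3 rose and none fell after PG 1100. They summed to 3137, 2614 and 2510 CPM in animals 27, 28 and 30, against 1850, 1386 and 1366 CPM in saline lungs. Animal 27, with the highest fibroblast sum, had the lowest synthesis mean of the PG 1100 animals. After VEA 12.5, 4 fibroblast markers rose and 2 fell, with sums of 2071 to 2519 CPM against 1511 to 1860 CPM after ethanol. Endothelial markers fell after both (7 of 8 after PG 1100 and 5 of 8 after VEA 12.5), as did club and ciliated cell markers (3 of 8 and 5 of 8) and erythroid markers (5 of 6 and 6 of 6). None of the listed defining markers counted was at 0 in a whole group. The part of these cell types in the results for the members was not tested.

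**Figure D4:**
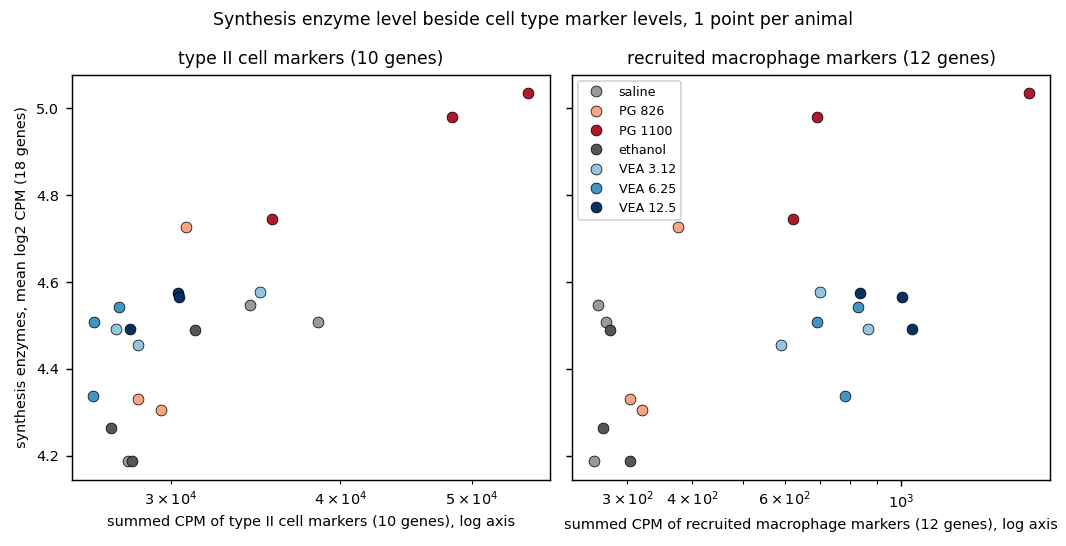
Mean log2 CPM of the 18 synthesis enzymes (vertical axis) against the summed CPM of type II cell markers and of recruited macrophage markers (horizontal axes, log scale), 1 point per animal, coloured by group. PG 1100 animals 28 and 30 lie at the upper right of the type II panel. VEA 12.5 animals have recruited macrophage sums of 837 to 1052 CPM and synthesis means of 4.491 to 4.574. Ethanol animals have 270 to 304 CPM and 4.189 to 4.489.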

How the data were processed

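Lung RNA of 21 mice was measured with QuantSeq 3′ libraries, per the labels' protocols. The deposited files hold counts per gene symbol, made by the authors with Bowtie2, bedtools and mm10, per the submitters' processing notes; versions, annotation and strand setting are not given in the sources used here. Symbols on several rows (35) were summed, and no member was among them. The members and all gene and marker lists were chosen with earlier results of these data known. Members called in any comparison are described by name, and the others by range and count, apart from the named factors and receptors of an arm. The 4 promoters shown were chosen after values were seen.

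Counts were analysed in R 4.3.3 with edgeR 4.0.16 (filterByExpr by group, TMM scaling, 1 robust quasi-likelihood fit with a mean per group over all 21 libraries, 14 residual degrees of freedom). P-values were adjusted by Benjamini-Hochberg over 14727 genes, and calls were made at 0.05. The SE of a log2 fold change is its size over the square root of its F statistic. List means use log2 CPM with a prior count of 2. Gene positions and 3′ overlaps came from GENCODE M21 (GRCm38). The fits were tested on simulated data with known changes in PG 1100 against saline. There edgeR recovered 8.93% of 56 genes changed 1.5-fold, 67.1% of 73 changed 2-fold and 98.6% of 71 changed 4-fold. Most 1.5-fold changes were thus missed. Of the genes called, 2.36% were false by edgeR, 10.4% by DESeq2 and 0% by limma-voom. Alternatives were RLE scaling, no filter, DESeq2 1.42.0, limma-voom (limma 3.58.1), only the groups compared, and each animal left out. A fit without the 3 libraries of fewest detected genes (saline 8, ethanol 13, VEA 6.25 65) was added after seeing the data. Chi-square per degree of freedom between animals of 1 group was 8.43 to 43.0, where counting error gives about 1.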

Additional observations from a re-analysis of the deposited data

How the results depend on the processing

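Over the 19 calls of a member in a comparison, 163 of 228 alternatives stayed past the threshold, 65 did not and 0 reversed. Pmvk, Soat1, Npc2 and Apoe after PG 1100 (against saline) and Ch25h after VEA 12.5 passed in all 12. Fitting only the groups compared gave 5 members higher (8 in the fit of all groups) and 0 lower (1) for PG 1100 against saline, 0 higher (4) for PG 1100 against PG 826, and 1 lower (0) for VEA 3.12. Fewer libraries then carry the estimate of spread. No low-count filter gave 8 higher (4) for PG 1100 against PG 826, and the cause was not tested. Without the 3 libraries of fewest detected genes there were 0 lower for PG 1100 against saline, 0 higher for VEA 3.12, 0 higher and 0 lower for VEA 6.25, and 1 higher (3) for VEA 12.5.

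Leaving out 1 animal gave 4 to 11 members higher and 0 to 1 lower for PG 1100 against saline, 0 to 11 higher for PG 1100 against PG 826, 0 to 1 higher for VEA 3.12, 1 higher in every fit and 0 to 1 lower for VEA 6.25, and 1 to 2 higher for VEA 12.5. The lowest PG 1100 counts, 4 against saline and 0 against PG 826, came without animal 28, and the highest, 11 and 11, without animal 27. Against PG 826 the count was also 0 without PG 826 animal 25, 1 without PG 826 animal 22 and 2 without PG 1100 animal 30. RLE scaling moved the median of all genes by at most 0.011 (log2). No paired analysis was possible because the groups share no animal numbers. With 3 animals a group and SEs of 0.14 or more on the log2 scale, small changes could not be detected.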
